A study of Homo sapiens with 2 samples.

Results

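Genes for protein entry into the endoplasmic reticulum (ER), for folding there and for its quality control were examined in insulin-producing cells made from human embryonic stem cells. The genes were taken from a list of 51 by their symbol in the array's annotation. Of these, 48 had a named probe, 62 probes in all, among 20046 named genes and 47323 probes on the array. *SEC61G*, *HERPUD1* and *KDELR2* were not analysed here. Both samples came from HUES8, an established human embryonic stem cell line, differentiated to stage 6 of a protocol that yields stem-cell-derived beta (SC-beta) cells. Cells that stained for NKX6-1, a beta-cell transcription factor, and for insulin were sorted, and their RNA was isolated with MARIS, a method for fixed and stained cells. The samples form 1 group of 2 biological replicates with 1 array each. The study set them beside adult islet cells, undifferentiated stem cells and cells from earlier protocols, which were not analysed here. No test between groups was possible, so the values below describe these arrays and carry no p-value.

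Secretory proteins such as preproinsulin carry a signal peptide that the signal recognition particle (SRP) binds as it leaves the ribosome. SRP brings the ribosome to the SEC61 channel in the ER membrane, the signal peptidase complex removes the peptide, and chaperones and disulfide isomerases fold the chain. Chains that do not fold are returned to the cytosol for ER-associated degradation. When unfolded chains build up, the sensors IRE1, PERK and ATF6 start the unfolded protein response, in which ATF6 and XBP1 switch on chaperone genes. Beta cells make insulin at a high rate and are known to depend on this machinery.

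ATF6 and XBP1 act through short promoter elements, and the matches to them are shown here because these elements are the known link between the response and its target genes. RefSeq promoter windows of GRCh38.p14, from 250 bases before to 50 bases after the annotated start, were found for 46 of the 51 genes, some with several starts. They were searched on both strands for 3 motifs. These were the ER stress response element ERSE (CCAAT and CCACG with 9 bases of any kind between them), the shorter ERSE-II (ATTGG and CCACG with 1 base of any kind between them) and the unfolded protein response element UPRE (TGACGTGG). ERSE occurred in 7 of the 46 genes (15.2%) and in 25 of the 27305 genes with a window of the same length in the table (0.0916%). ERSE-II occurred in 3 genes (6.52%) and in 19 of all genes (0.0696%), and UPRE in 6 genes (13%) and in 253 of all genes (0.927%). Counted over all 35116 windows, the shares were 0.0769% for ERSE, 0.0541% for ERSE-II and 0.729% for UPRE. The list holds known targets of the response, *HSPA5* among them, so larger shares than in all genes follow in part from the choice of genes. They describe the list and are no result of these arrays. A match is a match of letters and was not tested as a binding site. The search took exact letters inside these windows, so a gene without a match is not shown to lack the element. The ERSE matches follow, each read 5′ to 3′ along the motif, with the fixed letters in capitals. CALR and CRELD2 and the nearer HSP90B1 match lie on the strand opposite to the gene's.
HSPA5, chr9:125241391-125241409: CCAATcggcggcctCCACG
HSP90B1, chr12:103930216-103930234: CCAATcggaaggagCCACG
HSP90B1, chr12:103930321-103930339: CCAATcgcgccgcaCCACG
CALR, chr19:12938384-12938402: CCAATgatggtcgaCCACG
CANX, chr5:179698778-179698796: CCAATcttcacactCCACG
CRELD2, chr22:49918554-49918572: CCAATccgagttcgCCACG
PDIA6, chr2:10812853-10812871: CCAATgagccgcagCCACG
XBP1, chr22:28800603-28800621: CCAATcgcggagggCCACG
The ERSE-II matches were as follows, along the gene's strand in *HERPUD1*, shown for its sequence only, and on the opposite strand in the others.
HERPUD1, chr16:56932025-56932035: ATTGGgCCACG
HYOU1, chr11:119057274-119057284: ATTGGaCCACG
HYOU1, chr11:119057380-119057390: ATTGGaCCACG
SDF2L1, chr22:21642114-21642124: ATTGGtCCACG

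Apart from *XBP1* and *HERPUD1*, the genes with an ERSE or ERSE-II match encode chaperones, folding enzymes or their partners. Other chaperone and folding genes had a window and no such match, namely *DNAJB9*, *DNAJB11*, *DNAJC3*, *DNAJC10*, *MANF*, *P4HB* and *PDIA4*. No SRP, SEC61, signal peptidase or translocon-associated gene with a window had one either. UPRE matches lay in *DNAJC10*, *HYOU1*, *SEC62*, *SRP19*, *SSR3* and *SSR4*. Whole windows are given for HSPA5 (minus strand of chr9:125241294-125241593), HSP90B1 (plus strand of chr12:103930160-103930459) and HYOU1 (minus strand of chr11:119057156-119057455). In that order they held exact matches to 1 ERSE, 2 ERSE on opposite strands, and 2 ERSE-II. Stretches that come near a motif without matching it were not counted or marked. Each window is written 5′ to 3′ along the gene's strand, with the fixed letters of the matches in capitals. In HYOU1 the first run of capitals is a UPRE that overlaps the farther ERSE-II match.
HSPA5: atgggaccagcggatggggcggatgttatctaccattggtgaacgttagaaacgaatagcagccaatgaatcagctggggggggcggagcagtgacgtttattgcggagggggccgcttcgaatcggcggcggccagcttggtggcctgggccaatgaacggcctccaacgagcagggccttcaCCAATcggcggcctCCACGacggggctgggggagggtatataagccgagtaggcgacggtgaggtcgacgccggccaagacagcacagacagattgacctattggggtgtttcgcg
HSP90B1: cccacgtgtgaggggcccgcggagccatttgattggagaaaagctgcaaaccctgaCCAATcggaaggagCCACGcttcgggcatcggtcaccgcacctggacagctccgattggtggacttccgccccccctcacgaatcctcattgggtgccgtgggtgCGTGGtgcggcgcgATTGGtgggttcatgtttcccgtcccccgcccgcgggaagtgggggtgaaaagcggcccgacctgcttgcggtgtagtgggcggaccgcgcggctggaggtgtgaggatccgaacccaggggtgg
HYOU1: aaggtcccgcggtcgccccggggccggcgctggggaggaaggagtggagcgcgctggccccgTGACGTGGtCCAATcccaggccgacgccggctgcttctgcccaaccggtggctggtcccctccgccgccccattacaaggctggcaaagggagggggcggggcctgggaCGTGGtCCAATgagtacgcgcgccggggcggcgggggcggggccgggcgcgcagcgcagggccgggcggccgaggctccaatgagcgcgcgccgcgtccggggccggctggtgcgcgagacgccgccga

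**Figure D1:**
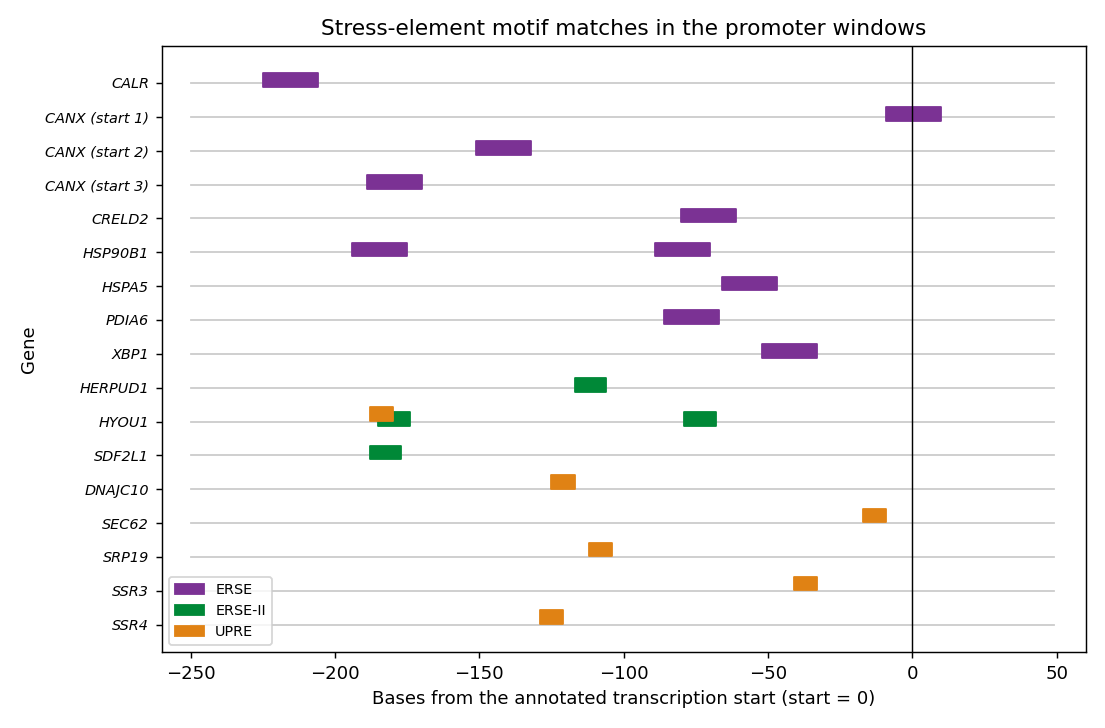
Positions of the motif matches in the promoter windows of the genes that had any, in bases from the annotated transcription start (x axis, start at 0), with 1 line per annotated start and 1 colour per motif. ERSE matches in *HSPA5*, *PDIA6*, *CRELD2* and *XBP1* lay within 86 bases before the start, and *CANX* had the same match at different distances from 3 annotated starts.

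The machinery was detected almost throughout. A probe counted as above background if its normalized intensity passed a floor on both arrays. The floor was the value that 95% of 457 olfactory receptor probes did not pass, 18.01 on replicate 1 and 15.86 on replicate 2, since these genes are hardly used outside the nose. Of the 48 measured genes, 42 (87.5%) were above background on both arrays, against 46.9% of all named genes. *SSR2* was above it on replicate 1 only, as were 4.77% of all genes, and *SEL1L* on replicate 2 only, as were 7.82%. *DNAJC3*, *PDIA3*, *ERN1* and *DERL3* were not above background on either array. Most genes of such a list are used by every cell that secretes, so a share above that of all genes describes the list as much as these cells.

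Differences between the replicates were about as frequent among these genes as among all genes. Of the 42 genes, 10 (23.8%) differed by 2-fold or more, against 24.5% of the 9393 genes above background. Of these genes 6 were higher in replicate 2, against 13.5% of all genes, and 4 were lower, against 10.9%. On the log2 scale the median difference, replicate 2 minus replicate 1, was 0.21 in these genes and 0.21 over all genes, with SDs of 0.81 and 0.92. The median probe above background, named or not, was 0.15 higher in replicate 2. The arrays share 1 distribution of values, so this median describes the probes that passed both floors and is no shift of the whole array. With that median subtracted, *SSR1*, *SPCS3*, *DNAJB9* and *EIF2AK3* were no longer 2-fold higher and *PDIA6* became 2-fold lower. This left 2 of the genes 2-fold or more higher and 5 lower, and over all genes the split changed from 1272 higher and 1026 lower to 900 and 1239. The differences have no replicate check, since each replicate has 1 array, and the number of arrays limits the precision of every value.

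**Figure D2:**
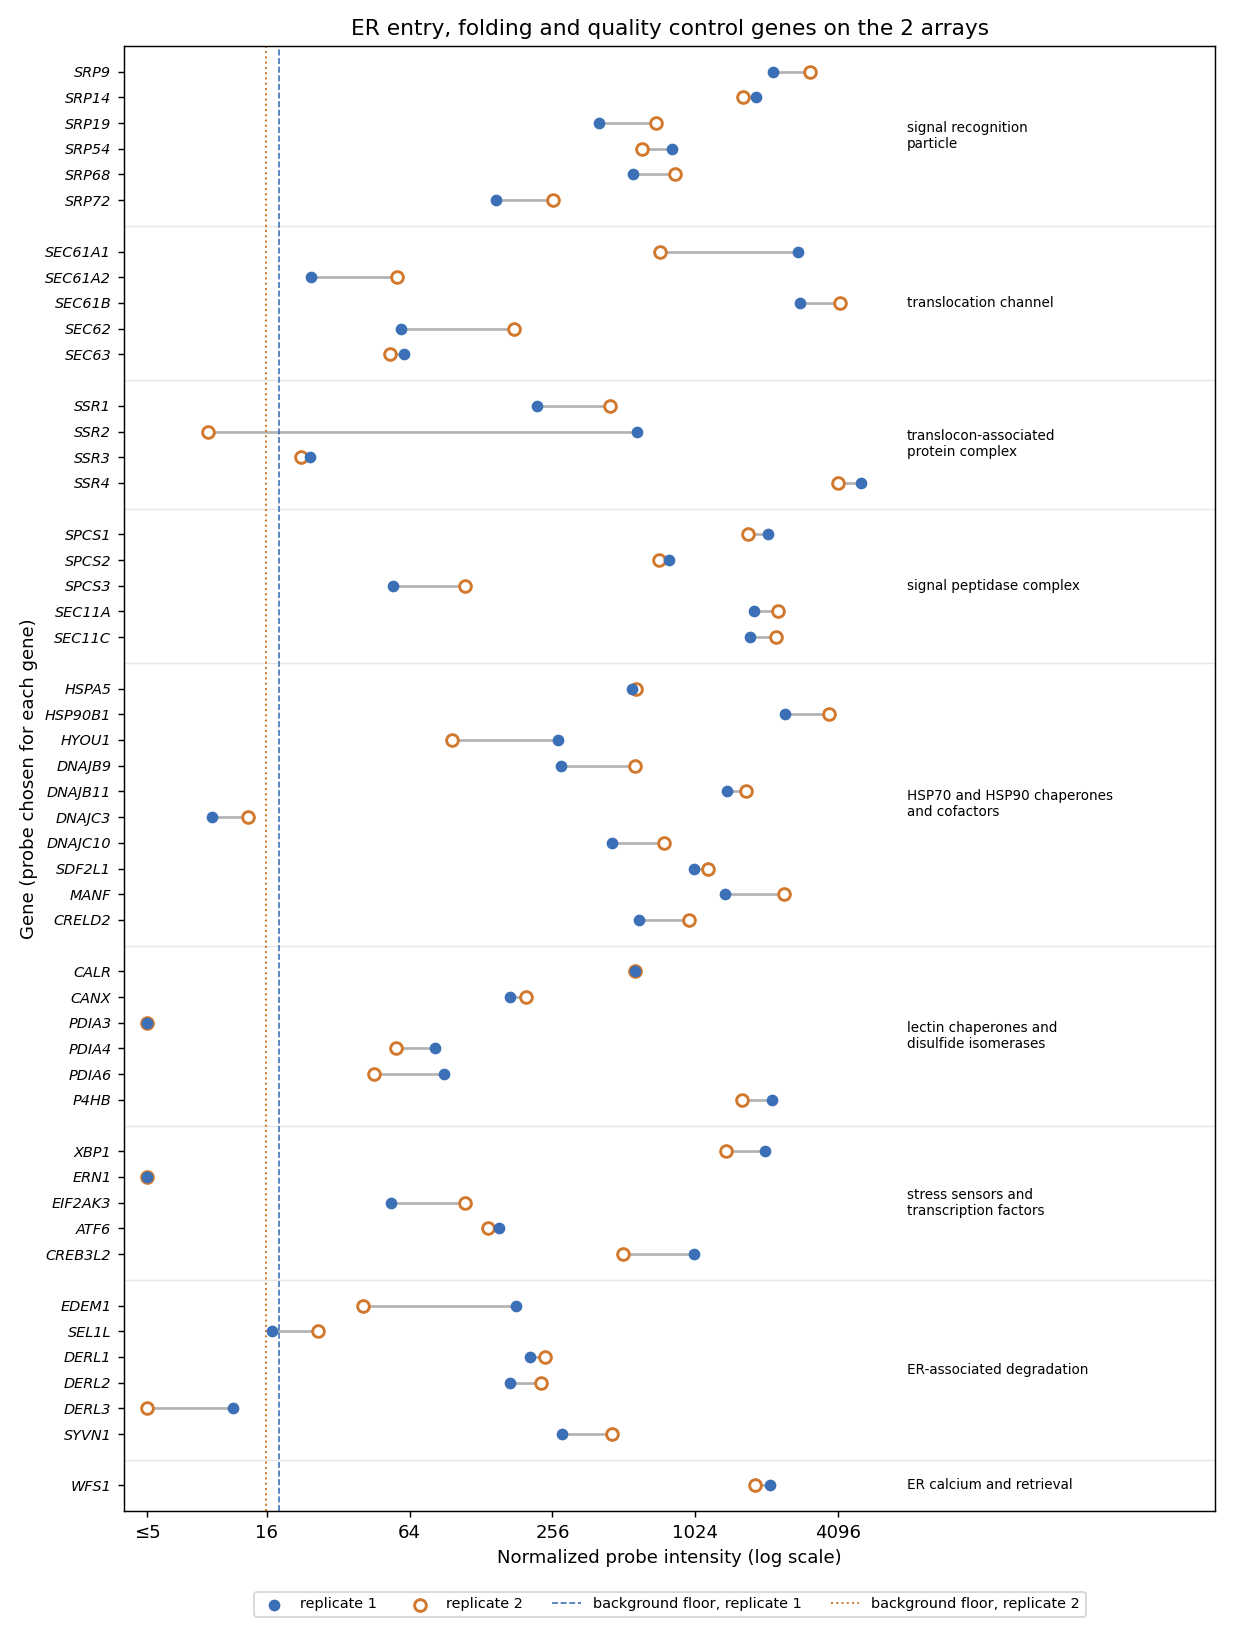
Normalized intensity (x axis, log scale, values under 5 drawn at 5) of the chosen probe of each of the 48 measured genes on replicate 1 (filled) and replicate 2 (open), grouped by role, with the background floor of each array as a vertical line. The line for *SSR2* crosses the floor, from 582 to 9.06, and *PDIA3*, *ERN1*, *DNAJC3* and *DERL3* stay left of it.

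All 6 protein genes of the SRP were above background on both arrays, and none differed by 2-fold. *SRP54*, which encodes the GTPase that binds the signal peptide, had an intensity of 820 on replicate 1 and 610 on replicate 2. *SRP68* and *SRP72*, whose products form a dimer on the SRP RNA, had 558 and 840, and 148 and 257. Both were thus higher in replicate 2, by 0.59 and 0.80 on the log2 scale. *SRP19*, an assembly factor of the particle, had 404 and 701, a difference of 0.79. *SRP9* and *SRP14* encode the pair that slows translation, and their probes disagreed. *SRP9* had 2171 and 3132 at the chosen probe, but 42.5 and 3.65 at its other probe. *SRP14* had 1848 and 1630 at the chosen probe and 463 and 935 at the other, 1.01 higher in replicate 2. The direction of the *SRP9* and *SRP14* differences therefore depends on the probe.

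Genes of the translocation channel differed in both directions, with an SD of 1.39 over the log2 differences of 5 genes, beside 0.92 over all genes. *SEC61A1*, which encodes the pore-forming subunit, had 2784 on replicate 1 and 729 on replicate 2, 3.82-fold lower, and 280 of the 9393 genes (2.98%) were lower by as much. *SEC61A2*, its paralog, went the other way with 24.5 and 56.5, 2.30-fold higher in replicate 2, close to the floor on replicate 1. It was not above background under a floor at the 99th percentile, and its log2 difference of 1.20 became 0.51 with an offset of 50 before log2 and 0.98 after removal of a brightness trend, both under 2-fold. *SEC62*, a channel partner used by small precursors that enter after translation, had 58.9 and 176, 2.99-fold higher in replicate 2. In all genes 3.37% were higher by as much. *SEC63*, which recruits the chaperone BiP to the channel, had 60.5 and 53.1, and its other probe, 23.8 and 18.7, gave a like small difference. *SEC61B*, a small channel subunit, had 2823 and 4184, a log2 difference of 0.57. Of the 5 measured channel genes, 3 differed by 2-fold or more, *SEC61A2* among them, against 24.5% of all genes, and each of the 3 had a single probe on the array.

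The 4 subunits of the translocon-associated protein (TRAP) complex, which sits beside the SEC61 channel and is known to help proinsulin enter the ER, had unlike values. *SSR2*, the beta subunit, had 582 on replicate 1 and 9.06 on replicate 2, where it did not pass the floor. It was at least 36.7-fold lower in replicate 2. Of the 957 genes that were above background at their chosen probe on replicate 1 only, none had a larger such bound. Its second probe had 81.8 and 15.1, at least 5.16-fold lower, and its remaining probe, with 10.5 and 0.673, was not above background on either array. Both of these *SSR2* probes passed the floor on replicate 1 only. A probe that passes on that array alone is lower on the other, so the second is no separate support for the first. The remaining probe shows no direction. *SSR1*, the alpha subunit, had 220 and 447, 2.03-fold higher in replicate 2. *SSR4*, the delta subunit, had 5119 and 4105, and *SSR3*, the gamma subunit, 24.4 and 22.3, near the floor. No other subunit was as much as 2-fold lower in replicate 2.

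The signal peptidase complex was detected whole. *SEC11A* and *SEC11C* encode alternative catalytic subunits, and both were present, with 1818 and 2288 for *SEC11A* and 1743 and 2246 for *SEC11C*. Neither difference, 0.33 and 0.37 on the log2 scale, was far from that of the median gene. *SPCS1*, an accessory subunit, had 2082 and 1708. *SPCS2*, another accessory subunit, had 793 and 723 at 1 probe and was below background at its other probe, with -3.38 and -5.87. *SPCS3*, a subunit needed for cleavage, had 54.7 and 110, 2.01-fold higher in replicate 2. The other probe of *SPCS3*, with 10.7 and 42.5, was also higher there, by at least 2.36-fold.

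**Figure D3:**
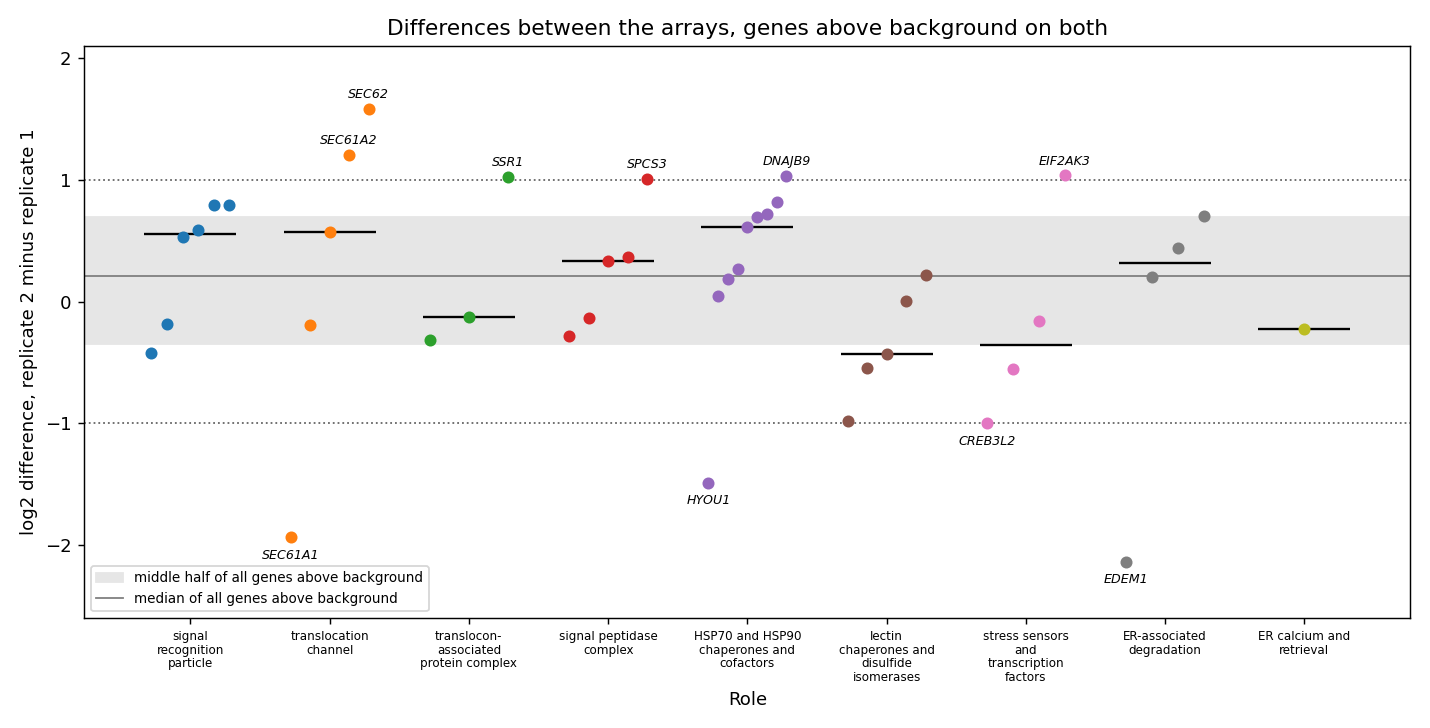
The log2 difference in intensity, replicate 2 minus replicate 1 (y axis), of the 42 genes above background on both arrays, by role, with the median of each role as a short line, the median of all genes as a long line and their interquartile range, -0.35 to 0.69, shaded. Dotted lines mark 2-fold, and 10 genes lay beyond them, *EDEM1* and *SEC61A1* farthest below and *SEC62* farthest above.

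Of the 9 chaperones of the HSP70 and HSP90 families and their cofactors above background, 8 were higher in replicate 2 at their chosen probe, and *HYOU1* was the exception. Over all genes 5721 of 9393 were higher there. The 8 include *HSPA5*, which was nearly level, and *DNAJC10*, whose other probe was lower in replicate 2. The median log2 difference of these 9 genes was 0.61, beside 0.21 over all genes, and 1 gene was higher and 1 lower by 2-fold or more. *HSPA5*, which encodes BiP, the main ER HSP70 and the classical target of the unfolded protein response, had 555 on replicate 1 and 575 on replicate 2 (mean 565 ± 13.8, SD, n = 2). *HSP90B1*, the ER HSP90 called GRP94, had 2456 and 3756, 1.53-fold higher in replicate 2. *HYOU1*, an HSP70 relative that helps BiP exchange nucleotide, was lower in replicate 2 instead, with 271 and 96.6, a 2.80-fold difference. The second probe of *HYOU1* had 219 and 43.5, a log2 difference of -2.33 beside -1.49 at the first. Both probes thus put *HYOU1* more than 2-fold lower in replicate 2, whereas *HSPA5*, which carries related promoter elements, differed by 0.050.

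The J proteins are BiP's co-chaperones. *DNAJB9*, a target of spliced XBP1, had 279 and 569, 2.04-fold higher in replicate 2. *DNAJB11* had 1399 and 1684, a difference of 0.27. *DNAJC10*, a disulfide reductase that acts in degradation, had 457 and 755 at 1 probe but 84.1 and 55 at the other, log2 differences of 0.72 and -0.61, so its direction was not settled. *DNAJC3*, also an inhibitor of the PERK kinase and a gene mutated in a form of inherited diabetes, was not above background at its single probe, with 9.44 and 13.3. That it was not detected rests on that probe alone.

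*SDF2L1*, which works with DNAJB11 and BiP, had 1017 and 1154. *MANF* and *CRELD2* encode small proteins that are secreted under ER stress, and MANF is known to be needed by mouse beta cells. *MANF* had 1374 and 2421, and *CRELD2* had 594 and 962, so both were higher in replicate 2, by 0.82 and 0.70.

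Among the lectin chaperones and disulfide isomerases, no gene differed by 2-fold. *CALR*, the lumenal lectin chaperone calreticulin, had 571 and 573. Its membrane-bound relative *CANX*, calnexin, had 170 and 198 at 1 probe and 130 and 131 at the other, so both lectins were nearly equal on the arrays. *P4HB*, the canonical protein disulfide isomerase, had 2161 and 1607. *PDIA4* and *PDIA6*, isomerases found in complexes with BiP, had 81.9 and 56.1, and 89.1 and 45.1. *PDIA6*, at -0.98, lay just inside the 2-fold line and passed it with the median of the probes above background subtracted, at -1.13. *PDIA3*, the isomerase that partners with both lectins, had -1.01 and -10.4 at its single probe and was not above background. All 3 isomerases of this list above background were lower in replicate 2, and the median over the 5 detected genes of this role was -0.43. The further genes for oxidation and isomerisation, given below, mostly went the other way.

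The sensors and transcription factors of the unfolded protein response were unevenly detected. *EIF2AK3*, which encodes the sensor kinase PERK, had 53.7 and 110, 2.05-fold higher in replicate 2. *ATF6*, the sensor that is cut to release a transcription factor, had 153 and 137. *ERN1*, which encodes IRE1-alpha, the sensor that splices XBP1 mRNA, had -11.9 and -10.8 at its single probe and was not above background. *XBP1* had 2 probes, which the annotation ties to different transcripts. The probe tied to the spliced transcript had 2017 and 1375, a log2 difference of -0.55, and the probe tied to the unspliced transcript had 1573 and 1674, a difference of 0.09. The transcripts differ by a short stretch only, and it was not tested whether either probe tells them apart. *CREB3L2*, a related membrane-bound factor, had 1013 and 506, 2-fold lower in replicate 2 and at the edge of that call.

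ER-associated degradation held the largest difference of the 42 genes. *EDEM1*, which encodes a mannose-trimming protein that marks glycoproteins for disposal, had 179 and 40.7, 4.39-fold lower in replicate 2, and 2.09% of all genes were lower by as much. *SYVN1*, the ubiquitin ligase HRD1, had 281 and 456 at the chosen probe, but 54.3 and 4.43 at its other probe, which is tied to another transcript. The difference was thus 0.70 at the first and at least 3.42-fold in the opposite direction at the second. *SEL1L*, the partner of HRD1, was close to the floor, with 16.8 and 26.3, at least 1.46-fold higher in replicate 2.

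The derlins are membrane proteins of the same export route. *DERL1* had 206 and 237. *DERL2* had 170 and 230 at the chosen probe and 58.2 and 37.7 at the other, so its probes went opposite ways. *DERL3*, which is known from cells specialised for secretion such as plasma cells, was not above background at either of its probes, with 11.6 and -0.0797 at 1 and -4.24 and 8.62 at the other. *WFS1*, the gene of Wolfram syndrome, in which diabetes occurs, encodes an ER membrane protein that affects calcium and the stress response. It had 2127 and 1823, and differed by -0.22.

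**Figure D4:**
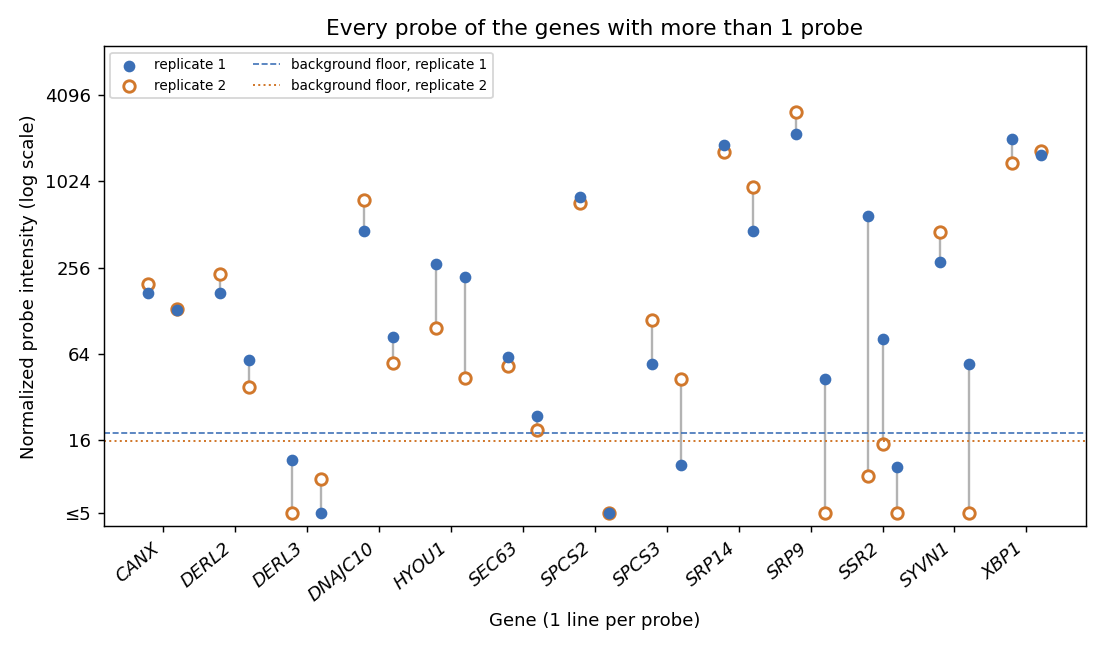
Normalized intensity (y axis, log scale, values under 5 drawn at 5) of every probe of the 13 genes with more than 1 probe, each probe as a line from replicate 1 (filled) to replicate 2 (open), with the background floors. The *SSR2* probes that passed a floor did so on replicate 1 only. Both *HYOU1* probes were lower in replicate 2, while the probes of *DERL2*, *DNAJC10*, *SRP9*, *SRP14*, *SYVN1* and *XBP1* went opposite ways.

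Where a gene had several probes, they could disagree. Of the 13 such genes, 7 had at least 2 probes above background on both arrays, and in 3 of these (42.9%) the differences seen by single probes were at least 2-fold from each other, against 31.5% of 1844 genes in the whole table. The 3 were *SRP14*, *DERL2* and *DNAJC10*. Of the 10 genes that differed by 2-fold or more at their chosen probe, *HYOU1* and *SPCS3* had another probe, and it was on the same side.

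The promoter classes were then set against the differences, as a description. All 9 measured genes with an ERSE or ERSE-II match were above background on both arrays. Their log2 differences ran from -1.49 for *HYOU1* to 0.70 for *CRELD2*, with a median of 0.050, and 1 of them was 2-fold lower and none 2-fold higher. The 5 genes with a UPRE match alone, *DNAJC10*, *SEC62*, *SRP19*, *SSR3* and *SSR4*, had a median of 0.72 and ran from -0.32 to 1.58, with *SEC62* 2-fold higher. That median is the value of *DNAJC10* at its chosen probe, and its other probe gave -0.61. *SSR3* lay near the floor, so the median of this class depends on the choice of 1 probe. The 26 genes above background with a window and no match to any of the 3 motifs had a median of 0.35 and ran from -2.14 to 1.20, with 5 higher and 3 lower by 2-fold or more. The genes with an ERSE or ERSE-II match lay on both sides of 0. *HSPA5* and *CALR* were level, *HSP90B1* and *CRELD2* higher and *PDIA6* and *HYOU1* lower in replicate 2, and *XBP1* was lower at its chosen probe only. *CANX*, at 0.22, and *SDF2L1*, at 0.18, were slightly higher, near the median of all genes, 0.21.

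The wider machinery was examined through 70 further ER genes, of which 69 were measured. Of these, 63 (91.3%) were above background on both arrays, against 46.9% of all genes. By 2-fold or more 16 (25.4%) differed, against 24.5% of all genes. Of them 5 were higher in replicate 2, against 13.5% of all genes, and 11 lower, against 10.9%. The median difference was 0.22, near that of all genes. The role of oxidation and further isomerases had 12 genes above background, 10 higher in replicate 2 and 2 lower, with a median of 0.46. Over all genes 5721 of 9393 were higher. In that role 3 were 2-fold or more higher, against 13.5% of all genes, and none lower, against 10.9%. *TRAM2*, *PDIA2*, *UGGT1*, *FKBP7* and *CREB3L1* were not above background on either array. The oligosaccharyltransferase, which attaches sugars to entering chains, had all 12 genes detected. Its catalytic subunit *STT3A* had 538 and 39.3, 13.7-fold lower in replicate 2, while *STT3B*, the alternative catalytic subunit, had 19.7 and 25.5 (it was chosen once its values were known). *PPIB*, the ER prolyl isomerase cyclophilin B, had 291 and 47.3, 6.14-fold lower, and *MOGS*, glucosidase I, had 205 and 35.3, 5.80-fold lower. In the other direction *PDIA5*, a disulfide isomerase, had 84.9 and 208, *ERP29*, an ER chaperone, 1652 and 3561, and *MARCHF6*, a ubiquitin ligase of the ER membrane, 670 and 1390. These 3 were 2.45-fold, 2.16-fold and 2.07-fold higher in replicate 2. *ERP29* and *MARCHF6* have 3 probes each, of which 1 and 2 were above background, and only the chosen probe is given for the further ER genes.

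**Figure D5:**
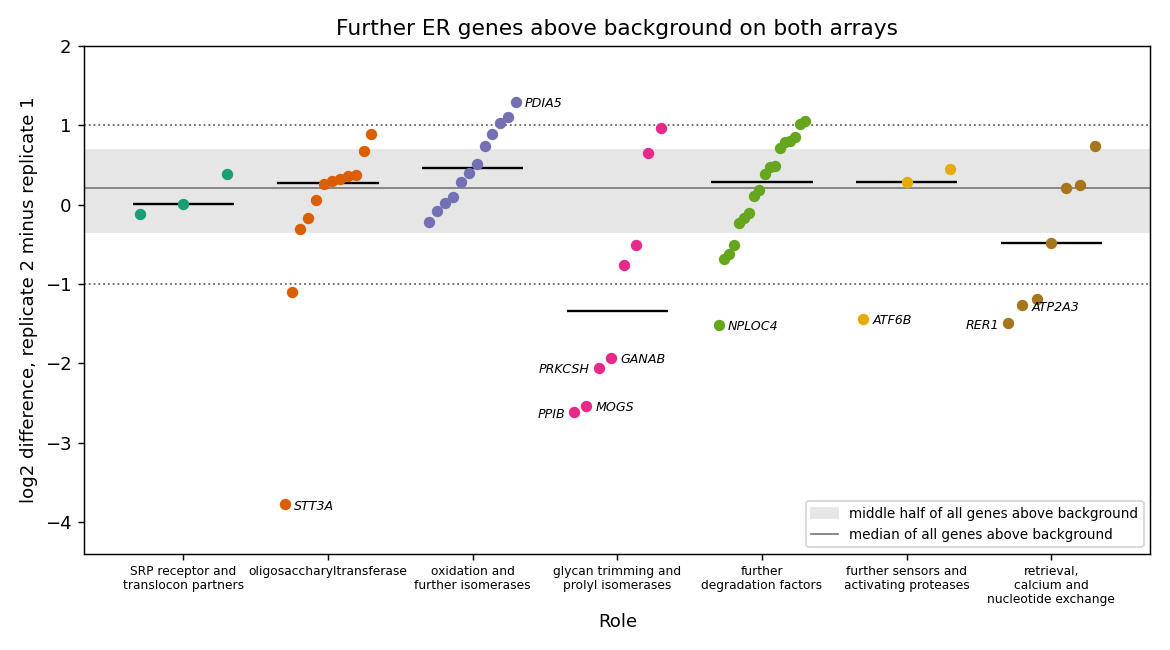
The log2 difference in intensity, replicate 2 minus replicate 1 (y axis), of the 63 further ER genes above background on both arrays, by role, drawn with the same lines and shading as for the listed genes. *STT3A* lay lowest at -3.78, and the median of the glycan trimming and prolyl isomerase genes was -1.34.

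The labelled cell type was checked on markers. Of 7 measured beta-cell markers, 6 were above background on both arrays, and *INS* had 16501 on each. *CHGA*, a granule protein of endocrine cells, had 16678 and 16892, *ABCC8*, a subunit of the beta-cell potassium channel, 6119 and 5507, *SLC30A8*, a zinc transporter, 2756 and 2412, and *PDX1*, a transcription factor, 2036 and 3079. *IAPP*, a hormone released with insulin, had 273 and 2107, 7.71-fold higher in replicate 2. *NKX6-1*, whose protein was a sorting marker, had 78.9 on replicate 1 and -4.24 on replicate 2, below the floor, so its single probe goes against the label there.

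Markers of other endocrine cells, which use the same machinery, were present. Whether their RNA came from other cells or from the insulin-stained cells was not tested and cannot be told apart here. All 3 measured alpha-cell markers passed both floors. The glucagon gene *GCG* had 4606 and 6346, *TTR* 14789 and 17783 and *IRX2* 138 and 170. Of 3 delta-cell markers, the hormone gene *SST* had 1924 and 3028. *LEPR*, with 5.54 and 105, and *HHEX*, with 5.33 and 28.1, passed the floor on replicate 2 only, at least 5.83-fold and at least 1.56-fold higher there. Only *SST* was thus above background on both arrays, 1.57-fold higher in replicate 2. *LEPR* has 5 probes, none above background on both arrays, and only the chosen one is given.

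Markers of other cells rich in ER were scarce. No acinar marker of 5 was above background on both arrays, and their values ran from -15.7 to 22.2. *CPA1* and *CTRC* passed on replicate 1 only, and *PRSS1*, *CELA3A* and *PNLIP* on neither. Of 6 plasma-cell markers 2 passed on both, *MZB1* with 24.5 and 15.9 and *SDC1* with 32.2 and 80.9. *IRF4* passed on replicate 2 only, with 1.66 and 18.2, *PRDM1* on neither, and *JCHAIN* and *TNFRSF17* were below 0 on both arrays.

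Some markers of cells other than endocrine ones passed on 1 array only, in either replicate. Of all genes 4.77% passed on replicate 1 only and 7.82% on replicate 2 only. Of 5 mesenchymal markers *COL1A1* and *COL1A2* were above background on both arrays, and *COL3A1* and *PDGFRB* on replicate 2 only. *COL3A1* had 12.3 and 76.6, at least 4.25-fold higher there, and *LUM* passed on neither. *PDGFRB* had 14.2 and 17.8, and passed on replicate 2 only because the floor is lower there, 15.86 against 18.01. None of 4 pluripotency markers passed on both. *SOX2* had -7.54 and 74.9, at least 4.16-fold higher in replicate 2, *POU5F1* passed on replicate 1 only, with 18.4 and 10.7, and *NANOG* and *LIN28A* on neither. The part of cell composition in the differences above was not tested, and fewer cells of a type cannot be told apart from less RNA per cell.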

How the data were processed

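Probe intensities of 2 arrays were used, 1 per replicate. The deposited values are normalized intensities on a linear scale. GenomeStudio is named in the submitters' processing notes, and the background correction and normalization are not given in the sources used here. The values reach below 0, to -22.6, and after sorting, no rank differed by more than 0.155 between the arrays, as quantile normalization leaves, so a shift shared by all genes cannot be seen. Amplification used the Illumina TotalPrep kit, per the labels' protocols.

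Of 47323 probes, 30113 had 1 gene in GEO's platform annotation, 8 had several and stay unnamed here, and 17202 had no entry in it. Symbols were updated by Entrez identifier (30074 probes). Values under the floor were set to it before log2. Each gene takes the value of the probe with the highest mean log2 intensity, chosen among those above background where there were any. Where only 1 array passed, the fold is a bound against the other array's floor or, if higher, the probe's own value. Probes differ in response, and levels were compared only within a probe. The counting code was run on simulated data with large changes in bright single-probe genes and little noise. That run checks the code only and says nothing about calls near the floor or near 2-fold. Python 3.11.15, pandas 2.3.3 and statsmodels 0.14.6 were used. The genes, lists and motifs were chosen with earlier results of these data known. Named were all listed genes, all measured markers and, of the further ER genes, those not above background on either array and the 3 largest differences in each direction. Further ER genes named beyond these were chosen after their values were seen. Alternatives changed the floor, the probe choice, the log offset and the scaling.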

Additional observations from a re-analysis of the deposited data

How the results depend on the processing

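No paired analysis was possible because there is 1 group only. Detection was the firmest result: with floors at the 90th and 99th percentiles, from 128 keratin-associated protein and taste receptor probes, or with a gene's median probe value, 40 to 44 of the 48 genes were above background, and 43 were on either array alone. For the further ER genes these counts ran from 57 to 63, with 63 and 64 on replicate 2 and replicate 1 alone. The count of 6 genes 2-fold higher in replicate 2 rests on genes near the threshold. It was 2 with median centring, 1 with an offset of 50 before log2 and 1 after removal of a brightness trend. *SSR1*, *SPCS3*, *DNAJB9* and *EIF2AK3* lost the call under these 3, *SEC61A2* under the offset and the trend, and *CREB3L2* under the offset. *SEC62*, *SEC61A1*, *HYOU1* and *EDEM1* passed 2-fold under all 8 alternatives that give a difference. Most of these could not move them, since a floor sets detection only and the arrays already shared 1 distribution. The median probe could move *HYOU1* only, as the others have 1 probe each. The offset, centring and trend removal could move all of them, and with the offset *SEC62* fell to 1.05 and *HYOU1* to -1.13. The offset lowered the share of all genes 2-fold apart to 11.1%, and that of these genes to 9.52%. The median difference of 0.21 became 0.058 with centring, 0.044 after trend removal and 0.052 with the median probe, at which the median of all genes was 0.061, 0.053 and 0.13. No 2-fold call changed direction. Array signal limits *SEC61A2*, *SSR3* and *SEL1L*, which lay near the floor.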

Other observations

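The 10 further ER genes listed for glycan trimming and prolyl isomerisation included several that were lower in replicate 2. Of these genes 8 were above background on both arrays, 2 higher and 6 lower in replicate 2. By 2-fold or more 4 were lower, against 10.9% of all genes, and none was higher, against 13.5%. *MOGS*, glucosidase I, which removes the first glucose from the sugar chains of new glycoproteins, was 5.80-fold lower. *GANAB*, the catalytic subunit of glucosidase II, had 459 and 120, 3.81-fold lower, and *PRKCSH*, its regulatory subunit, had 365 and 87.6, 4.17-fold lower. *PPIB*, a prolyl isomerase and no trimming enzyme, is the fourth, at 6.14-fold lower. *FKBP2* and *FKBP11*, also prolyl isomerases, had log2 differences of -0.76 and -0.51. In the other direction *FKBP14*, of the same family, had 1760 and 3432, and *UGGT2*, which belongs to the enzymes that add glucose back to unfolded chains, had 191 and 301. *PRKCSH*, *FKBP2* and *FKBP14* have more than 1 probe, and only the chosen one is given. Apart from *MOGS* and *PPIB*, the genes with values here were named after their values were seen. This role and the next had the lowest medians among the roles of the further ER genes, -1.34 and -0.49.

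The 7 genes listed for retrieval, calcium and nucleotide exchange were all above background and lay on both sides. In replicate 2, 3 were higher and 4 lower, and 3 were 2-fold or more lower, against 10.9% of all genes. *KDELR1*, a receptor that returns escaped ER proteins, had 1274 and 557, 2.29-fold lower in replicate 2, while its relative *KDELR3* had 64.1 and 75.8. *RER1*, another retrieval receptor, had 231 and 81.9, 2.82-fold lower. *ATP2A3*, a calcium pump of the ER, had 447 and 186, 2.41-fold lower, whereas *ATP2A2*, its widely expressed relative, had 634 and 736. *CISD2*, an ER membrane protein linked to a form of Wolfram syndrome, had 180 and 301, 1.67-fold higher in replicate 2. *SIL1*, a nucleotide exchange factor of BiP, had 590 and 420. These genes too were named after their values were seen, and their differences rest on 1 array per replicate. *KDELR3*, *RER1*, *ATP2A2*, *ATP2A3* and *SIL1* have more than 1 probe, and only the chosen one is given.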
